A study of Mus musculus with 8 samples.

Results

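Chromosome 19, the shortest mouse autosome, was described through every H3K27me3 peak called on it in morulae. These were 118 of the 4991 peaks in the Kdm6bWT list and 1593 of the 90158 peaks in the Kdm6bMUT list, 1711 of 95149 in all. The chromosome was chosen by 2 measured values: the bases in Kdm6bMUT peaks divided by those in Kdm6bWT peaks, lowest here among the 19 autosomes, and the share of its length in Kdm6bMUT peaks, also the lowest. Every value below comes from the lists that chose it, so all comparisons are descriptions and no test was made.

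H3K27me3, trimethylation of lysine 27 on histone H3, is laid down by Polycomb repressive complexes and marks genes that are kept silent. In mouse eggs and early embryos it also lies over broad stretches between genes and on the maternal copy of genes that it imprints. Kdm6b is a demethylase that removes the mark, and its injection asks where the mark is lost in the embryo.

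One group was morulae from zygotes injected with mRNA for the active enzyme, Kdm6bWT. The other group was morulae from zygotes injected with mRNA for a mutant form, Kdm6bMUT, known from the study as the catalytically inactive control. Injections took place 2.5 to 4 hours after fertilization, with either mRNA at a concentration of 1.8 µg/µl. The embryos are labelled BDF1xPWK and the oocytes came from superovulated B6D2F1 females aged 8 weeks. Each group had 1 library made by ultra-low-input native ChIP-seq, called against input, and both inputs carry a label for no injection. With 1 library per group there is no replicate check, and in bulk chromatin fewer marked cells and less mark per cell cannot be told apart. Read depth is unknown, and a shallower library can give fewer and narrower peaks. Fold enrichment over input and score, which grows as the q-value falls, are the authors' values for each peak and describe peaks within 1 list. The RNA-seq libraries of the series were not analysed here. Positions are in the mm9 build, counted from 1. No gene annotation or genome of that build was used, so no gene was placed on a peak and no sequence is shown.

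Chromosome 19 had the lowest share of length in H3K27me3 peaks of the autosomes in the Kdm6bMUT list, but not in the Kdm6bWT list. Over the 58.0 Mb from its first to its last peak, Kdm6bWT peaks covered 72.7 kb and Kdm6bMUT peaks 3.39 Mb. The Kdm6bWT bases were 2.14% of the Kdm6bMUT bases on chromosome 19, against 1.35% on the 18 other autosomes together and 1.05% to 1.91% on each of them. Written as Kdm6bMUT over Kdm6bWT, with the control on top, the ratio was 46.6 on chromosome 19 and 73.9 on the 18 others together. The next autosome was chromosome 11 with 52.3, and the highest was chromosome 7 with 94.8.

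Kdm6bWT coverage of chromosome 19 was within the range of the other autosomes. Kdm6bWT peaks covered 0.125% of chromosome 19, with rank 5 from the lowest of the 19 autosomes, against 0.111% to 0.216% of each other autosome and 0.141% of them together. Kdm6bMUT peaks covered 5.84% of chromosome 19, against 8.14% (chromosome 10) to 12.5% (chromosome 17) of each other autosome and 10.4% of them together. Relative to the others together, chromosome 19 thus had 0.891 of the Kdm6bWT coverage and 0.562 of the Kdm6bMUT coverage. The low ratio lay in the second of these by arithmetic. With the Kdm6bMUT coverage of the others and its own Kdm6bWT coverage, chromosome 19 would have had a ratio of 83.0. With their Kdm6bWT coverage and its own Kdm6bMUT coverage it would have had 41.5.

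**Figure D1:**
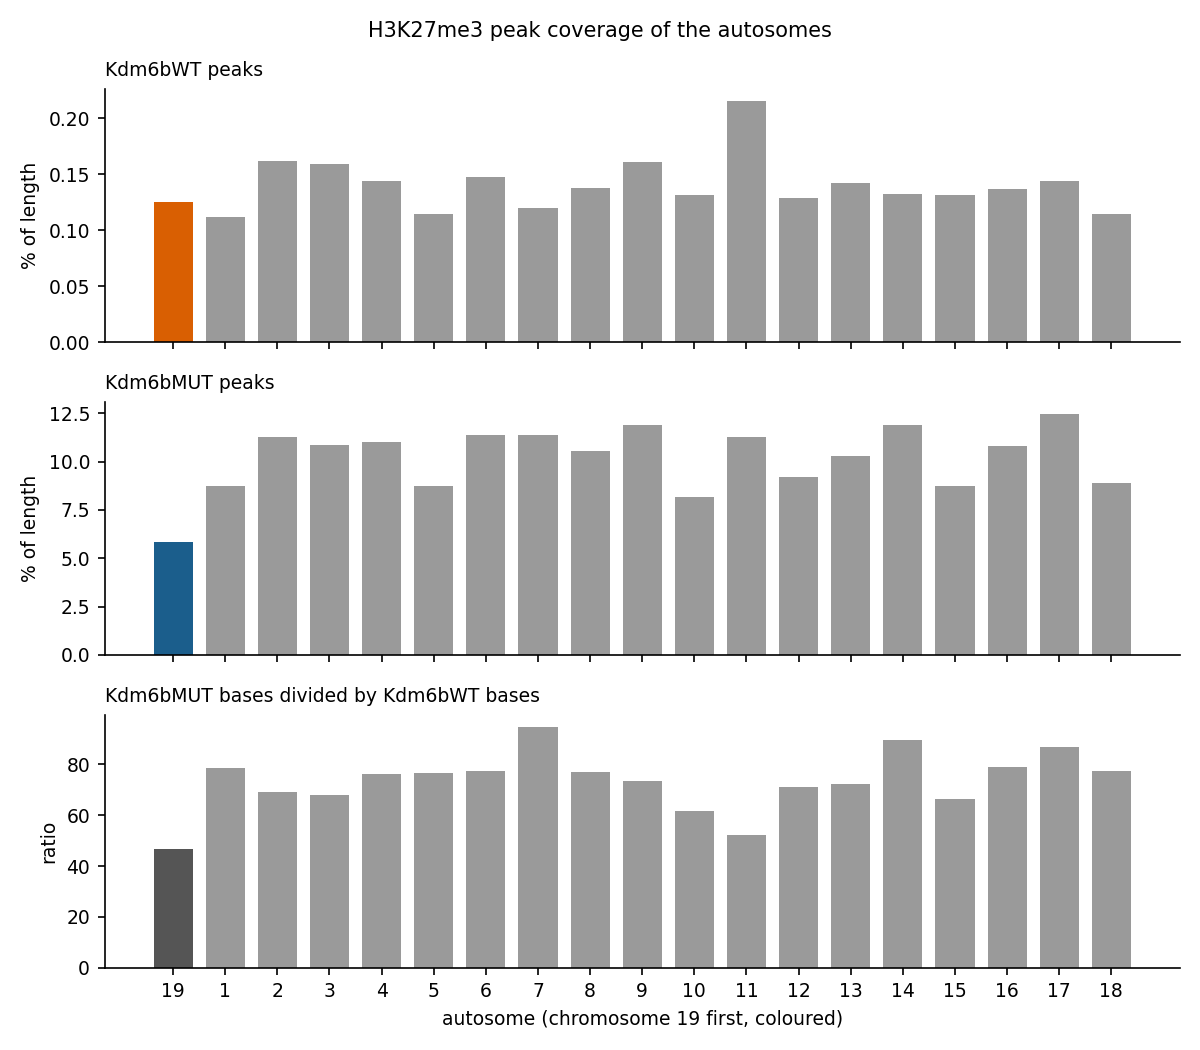
Share of each autosome, from its first to its last peak, that lay in Kdm6bWT peaks (top, %) and Kdm6bMUT peaks (middle, %), and covered bases of Kdm6bMUT over those of Kdm6bWT (bottom); each bar is 1 library, and chromosome 19 is the coloured bar at the left. Chromosome 19 has 0.125% in the top panel, inside the range of the others, and the lowest bar in the middle (5.84%) and bottom (46.6) panels.

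Fewer peaks and narrower peaks contributed about equally to the low Kdm6bMUT coverage. Per Mb, chromosome 19 had 2.03 Kdm6bWT peaks, against 1.99 on the 18 others together. It had 27.5 Kdm6bMUT peaks per Mb, against 37.2 on the others, a quotient of 0.739 and the lowest density of the autosomes. Kdm6bWT peaks were on average 616 bases wide on chromosome 19 and 707 bases on the others. Kdm6bMUT peaks averaged 2128 bases on chromosome 19 and 2799 on the others, a quotient of 0.760. Kdm6bWT peaks were therefore as dense on chromosome 19 as elsewhere, while Kdm6bMUT peaks were sparser, and mean widths in both lists were the lowest of the 19 autosomes.

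The second lowest ratio, on chromosome 11, had the opposite make-up. Chromosome 11 had the highest Kdm6bWT coverage of the autosomes, 0.216%, and a Kdm6bMUT coverage of 11.3%, above the 10.4% of the 18 autosomes other than chromosome 19 together. Leaving out its window from 3 to 4 Mb, the most covered in the Kdm6bWT list, gave chromosome 11 a ratio of 66.6. On chromosome 19 no single window acted in that way. Leaving out each of its 59 windows in turn gave ratios from 44.5 (without 35 to 36 Mb) to 50.9 (without 44 to 45 Mb), all below 52.3.

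The place of chromosome 19 at the bottom of this order depended on which peaks were kept, whereas its lowest Kdm6bMUT coverage did not in the 5 settings where it was ranked. The ratio of chromosome 19 was above that of chromosome 11 with peak scores of at least 13 (106 against 92.7), with widths of at least 1 kb (97.2 against 79.7), with peaks under 5 kb apart merged (73.7 against 65.4) and without peaks of 10 kb or more (41.4 against 40.9). On chromosome 19 the score floor left 65 Kdm6bWT and 1541 Kdm6bMUT peaks. The width floor left only 22 Kdm6bWT peaks, against 1002 Kdm6bMUT peaks. At the lowest −log10 p of the Kdm6bWT list, 3.67, the ratio of chromosome 19 stayed lowest, with 25.2 against 38.1 on chromosome 11. By construction this floor removes Kdm6bMUT peaks only, so it can only lower a ratio. Kdm6bMUT coverage of chromosome 19 was the lowest of the autosomes in all of these 5 settings.

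Along chromosome 19 the coverage was gathered toward the far end from the centromere in both lists, and more so in the Kdm6bMUT list. Mouse autosomes have the centromere at the low-numbered end. Beyond the midpoint of chromosome 19 lay 59.7% of its Kdm6bWT bases and 65.3% of its Kdm6bMUT bases. Other autosomes had medians of 57.9% for Kdm6bWT bases and 69.7% for Kdm6bMUT bases, and in the Kdm6bMUT list 13 of the 18 were above chromosome 19. Gathering toward that end was thus shared with the other autosomes. In the first 17 windows of 1 Mb, from 3 to 20 Mb, Kdm6bWT peaks covered 14.0 kb, or 19.2% of their bases, and Kdm6bMUT peaks 459 kb, or 13.5%. None of these windows reached 100 kb of Kdm6bMUT coverage. The 11 windows from 49 to 60 Mb held 21.6 kb in Kdm6bWT peaks, or 29.7% of their bases, and 1361 kb in Kdm6bMUT peaks, or 40.1%. The boundaries of these blocks were chosen after the values were seen.

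In 10 Mb segments, chromosome 19 was thinly covered near the centromere, within the range of the others there. Its last full segment was above the median of segments of other autosomes pooled over all positions, but mid-range for its own position. In the segment up to 10 Mb, of which 6.67 Mb lay beyond the first peak, Kdm6bWT peaks covered 0.0298% and Kdm6bMUT peaks 1.58%. Other autosomes had 0.0183% (chromosome 14) to 0.822% (chromosome 11) in Kdm6bWT peaks there. In Kdm6bMUT peaks they had 0.132% (chromosome 14) to 6.46% (chromosome 6). From 10 to 20 Mb the values of chromosome 19 were 0.120% in Kdm6bWT peaks and 3.54% in Kdm6bMUT peaks. From 20 to 30 Mb they were 0.125% in Kdm6bWT peaks and 6.80% in Kdm6bMUT peaks. The next 20 Mb had less in the Kdm6bMUT list. From 30 to 40 Mb Kdm6bWT peaks covered 0.103% and Kdm6bMUT peaks 5.13%, and from 40 to 50 Mb Kdm6bWT peaks covered 0.153% and Kdm6bMUT peaks 5.22%. From 50 to 60 Mb the shares were 0.196% in Kdm6bWT peaks and 11.7% in Kdm6bMUT peaks. Segments of the other autosomes had medians of 0.126% in Kdm6bWT peaks and 9.66% in Kdm6bMUT peaks (239 segments), so the last of these 6 segments was above both and the first 5 were below the Kdm6bMUT median. These medians pool all positions. At the same position, only chromosomes 2, 6, 8, 9 and 15 had more Kdm6bMUT coverage from 10 to 20 Mb. From 20 to 30 Mb only chromosomes 2 (7.05%) and 16 (7.04%) had more. From 40 to 50 Mb only chromosomes 1 (5.02%), 7 (4.91%) and 12 (2.99%) had less. From 50 to 60 Mb chromosome 19 lay in the middle of the order, between chromosomes 2 (11.3%) and 3 (12.5%).

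The ratio of covered bases was not low all along chromosome 19. In the same order of segments it was 53.0, 29.5, 54.4, 49.9, 34.2 and 59.5. All 6 values were below the median of 70.2 for all segments of other autosomes, but 4 of them were above the lower quartile of 45.6. Ratios were low near the centromeric end of the other autosomes too. In segments at the same position, the medians of the 18 others were 19.2, 28.5, 37.8, 50.5, 88.7 and 81.3. Up to 10 Mb chromosome 19 was above all 18 others, whose highest ratio was 49.6, but its ratio there rests on only 1.99 kb in Kdm6bWT peaks. From 40 to 50 Mb chromosome 19 was below all 18, whose lowest was 37.2, and from 50 to 60 Mb it was above 7 of them. Of the 2 lowest values, the one from 10 to 20 Mb went with Kdm6bMUT coverage of 3.54%. That was below the median of all segments but not low for its position. The one from 40 to 50 Mb went with 5.22%, less than on most other autosomes at that position. It also included the window with the most Kdm6bWT bases. Split at its midpoint, chromosome 19 had a ratio of 51.0 on the distal side and 40.1 on the centromeric side. The other autosomes are longer and were cut at their own midpoints, so the sides compared lie at unlike positions. Their distal ratios lay between 69.9 and 119, all above chromosome 19. On the centromeric side chromosome 11, with 36.3, was lower. Kdm6bMUT coverage of chromosome 19 was the lowest of the autosomes on both sides so cut, with 7.63% on the distal and 4.05% on the centromeric side. In none of the 6 segments was its Kdm6bMUT coverage the lowest of the autosomes at the same position.

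**Figure D2:**
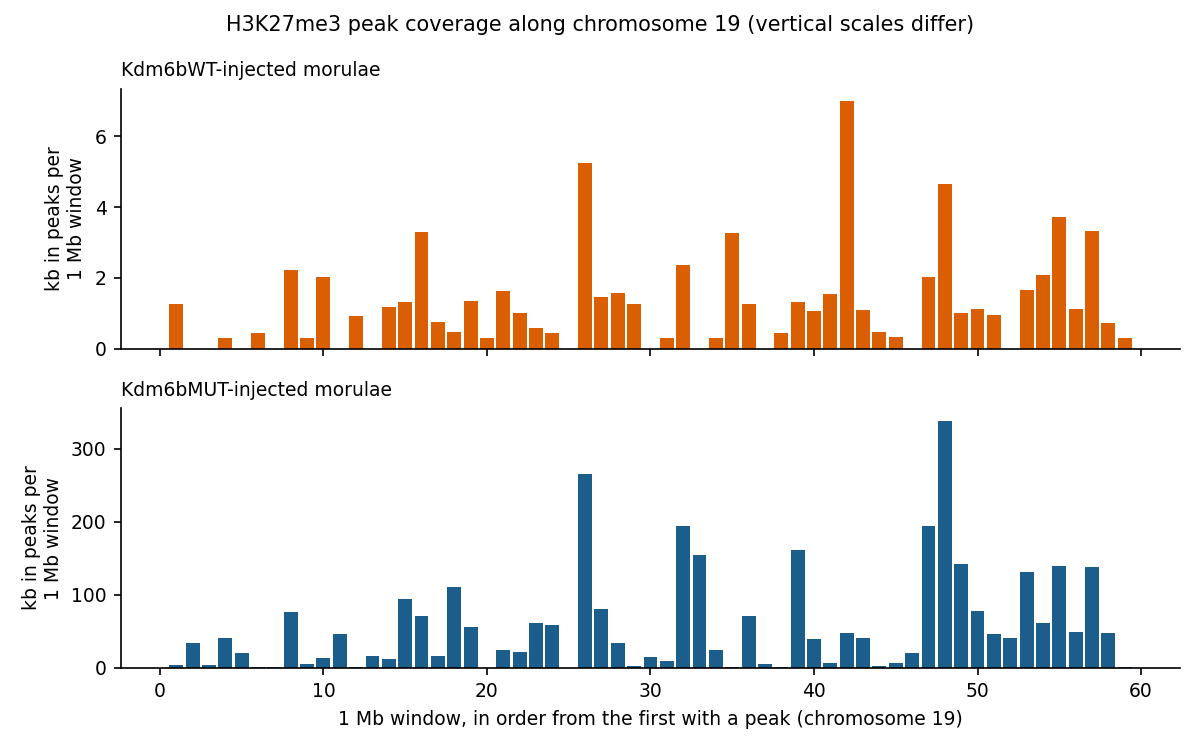
Kilobases in Kdm6bWT peaks (top) and Kdm6bMUT peaks (bottom) in each of the 59 windows of 1 Mb on chromosome 19, in order from the centromeric end; each panel is 1 library and the vertical scales differ. The highest Kdm6bMUT bar, 339 kb, is in the distal part, and the highest Kdm6bWT bar, 6.99 kb, stands over a window with 48.2 kb in Kdm6bMUT peaks.

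The window from 50 to 51 Mb held the most Kdm6bMUT coverage on chromosome 19, with 4.64 kb in 4 Kdm6bWT peaks and 339 kb in 116 Kdm6bMUT peaks. All 4 Kdm6bWT peaks there overlapped the other list, against 33.1% on the whole chromosome, but high Kdm6bMUT coverage chose this window. With its neighbours from 49 to 52 Mb it formed a block of 3 windows that held 7.69 kb in Kdm6bWT peaks, or 10.6% of their bases on the chromosome, and 675 kb in Kdm6bMUT peaks, or 19.9%. The second most covered window, from 28 to 29 Mb, had 5.26 kb in 8 Kdm6bWT peaks and 266 kb in 64 Kdm6bMUT peaks. It lay next to a window with no peak of either list. The third, from 34 to 35 Mb, had 2.37 kb in Kdm6bWT peaks and 195 kb in Kdm6bMUT peaks. The windows from 49 to 50 Mb and from 41 to 42 Mb came next, with 2.04 kb and 1.31 kb in Kdm6bWT peaks and 195 kb and 161 kb in Kdm6bMUT peaks. Kdm6bWT bases were between 0.813% and 1.98% of Kdm6bMUT bases in these 5 windows, all under the 2.14% of the whole chromosome. High Kdm6bMUT coverage chose these windows and is the denominator, so nothing is read from that order.

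The Kdm6bWT list ordered the windows differently in part. Of the 5 most covered windows of each list, 2 were the same, 40.0% of each. The window with the most Kdm6bWT coverage, from 44 to 45 Mb, held 6.99 kb in 6 Kdm6bWT peaks and 48.2 kb in 23 Kdm6bMUT peaks, and ranked 23 by Kdm6bMUT coverage. Among its Kdm6bWT peaks, 3 overlapped the other list and 3 did not. It also held the widest Kdm6bWT peak of the chromosome (44801845 to 44805022, 3178 bases, fold enrichment 3.57), which lay 1.58 kb outside the nearest Kdm6bMUT peak, and the highest-scoring Kdm6bMUT peak (44748285 to 44748699, score 49, fold enrichment 5.17), which no Kdm6bWT peak touched. The windows from 57 to 58 Mb and from 59 to 60 Mb completed the 5, with 3.71 kb and 3.32 kb in Kdm6bWT peaks and 140 kb and 138 kb in Kdm6bMUT peaks. Window by window, Kdm6bWT and Kdm6bMUT coverage had a Spearman rho of 0.51 on chromosome 19 (n = 59) and of 0.43 to 0.70 on single other autosomes. Windows are neighbours on 1 chromosome and share libraries, so this is a description.

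Leaving out windows with no Kdm6bWT peak, in 2 of the 59 windows Kdm6bWT peaks held at least as many bases as Kdm6bMUT peaks, which was true of 4.63% of windows on all 19 autosomes. From 37 to 38 Mb, 4 Kdm6bWT peaks covered 3.26 kb and 1 Kdm6bMUT peak covered 1.66 kb, and none touched the other list. The widest of the 4 (37579741 to 37581765, 2025 bases) was the third widest Kdm6bWT peak on the chromosome and lay 36.4 kb from a Kdm6bMUT peak. From 22 to 23 Mb there was 1 Kdm6bWT peak of 300 bases and no Kdm6bMUT peak.

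Few windows of 1 Mb on chromosome 19 were without a Kdm6bMUT peak. Of the 59 windows, 12 (20.3%) had no Kdm6bWT peak and 2 (3.39%) had no Kdm6bMUT peak. Over all 19 autosomes the shares were 26.4% without a Kdm6bWT peak and 7.89% without a Kdm6bMUT peak. Single other autosomes ranged from 2.61% to 14.0% of windows without a Kdm6bMUT peak, so chromosome 19 lay near the low end of that range. The 2 windows were from 22 to 23 Mb and from 27 to 28 Mb, and the one from 27 to 28 Mb held no Kdm6bWT peak either. The share without a Kdm6bMUT peak depended on the setting. It was 17.1% in windows of 500 kb, and 15.3% in windows of 1 Mb with peaks at a −log10 p of at least 3.67. Windows under 10 kb numbered 17 (28.8%), against 25.0% of windows on all 19 autosomes. Of these 17 windows, 13 held a Kdm6bWT peak, a share close to that among all 59 windows.

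What chromosome 19 had few of was dense windows. Kdm6bMUT peaks covered 100 kb or more in 11 of its windows (18.6%), against 36.9% of windows on all 19 autosomes. Coverage of 200 kb or more was found in 2 windows (3.39%), against 17.1% on the 18 others. The quartiles of Kdm6bMUT coverage per window were 6.87, 38.8 and 74.0 kb on chromosome 19, against 10.1, 57.7 and 151 kb on the others. The gap between chromosome 19 and the others was thus widest at the upper quartile. For Kdm6bWT coverage the quartiles were 0.3, 1.005 and 1.56 kb on chromosome 19, against 0, 0.835 and 1.97 kb on the others. Windows with 100 kb or more held 58.2% of the Kdm6bMUT bases of chromosome 19, against 82.3% on the others.

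The ratio was higher in denser windows, on chromosome 19 as elsewhere. In windows under 10 kb of Kdm6bMUT coverage the quotient of Kdm6bMUT over Kdm6bWT bases was 4.77 on chromosome 19 and 4.69 on the others. In windows of 10 to 100 kb it was 38.1 on chromosome 19 and 46.6 on the others, and in windows of 100 kb or more it was 76.6 on chromosome 19 and 96.4 on the others. An order of this kind follows in part from sorting windows by the numerator. Mean Kdm6bWT coverage per window was 0.653, 1.16 and 2.34 kb in the 3 classes on chromosome 19, and 0.549, 1.00 and 2.37 kb on the others. Kdm6bWT coverage per window was thus close to that of other autosomes in the densest class and above it in the thinner classes. Chromosome 19 had fewer windows in the class with the highest ratio. Kdm6bMUT coverage set the classes, so this restates the low Kdm6bMUT coverage of chromosome 19. Among windows under 100 kb alone, its ratio of 30.2 was the fourth lowest of the autosomes, which otherwise ranged from 16.1 to 47.8. Among those of 100 kb or more its 76.6 was just below the next value, 76.7 on chromosome 15.

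**Figure D3:**
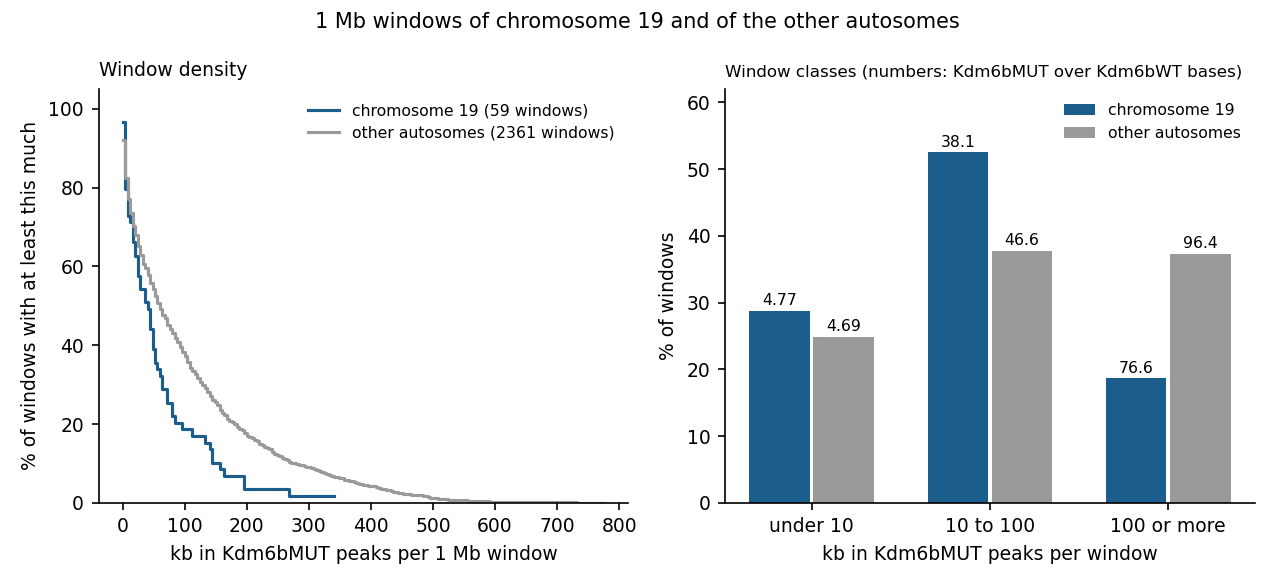
Left, share of 1 Mb windows (%) with at least the Kdm6bMUT peak coverage on the horizontal axis (kb, where 0 stands for any coverage), for the 59 windows of chromosome 19 and the 2361 windows of the 18 other autosomes. Right, share of windows (%) in 3 classes of Kdm6bMUT coverage, with the ratio of Kdm6bMUT to Kdm6bWT bases above each bar; chromosome 19 has 18.6% of its windows at 100 kb or more and ratios of 4.77, 38.1 and 76.6 from the thinnest to the densest class.

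The longest stretch of chromosome 19 without a Kdm6bMUT peak was shorter than the longest of any other autosome. It ran for 1660 kb (30096859 to 31756797) and held 4 Kdm6bWT peaks of 2811 bases in all. The next ran for 1603 kb (26509099 to 28112144) with 1 Kdm6bWT peak of 438 bases, and the third for 1450 kb (11467755 to 12917351) with 3 Kdm6bWT peaks of 2020 bases in all. On each other autosome the longest such stretch was between 2192 and 8688 kb, and chromosome 19 is also the shortest. Stretches of 500 kb or more made up 40.7% of chromosome 19, within the 29.6% to 46.5% of the others.

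Long runs of closely spaced Kdm6bMUT peaks were few on chromosome 19. Joined across gaps of less than 10 kb, 1 run reached 200 kb, or 0.172 per 10 Mb, against 381 runs on the 18 others, or 1.62 per 10 Mb (1.02 to 2.96 on each). That run spanned 325 kb (28546772 to 28871332), which was shorter than the longest run of each other autosome (464 to 986 kb). It held 6 Kdm6bWT peaks that filled 1.44% of it and 43 Kdm6bMUT peaks that filled 66.2%, with Kdm6bMUT fold enrichments from 2.58 to 3.61. Among these 6 Kdm6bWT peaks, 4 overlapped the other list, which filled most of the run, so nothing is read from that count. The next 3 runs fell just short of the limit, at 199.7 kb (50193050 to 50392792), 199.7 kb (50823277 to 51023011) and 198.7 kb (49548164 to 49746842), so the count of 1 rests on where the limit was set. These 3 runs lay between 49 and 52 Mb. Kdm6bWT peaks filled 0.150%, 0.932% and 0.833% of them, and Kdm6bMUT peaks 64.7%, 46.8% and 46.4%.

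Peaks of both lists were narrow on chromosome 19. The median width of its Kdm6bWT peaks was 426.5 bases (quartiles 300 and 752), against 496 bases (304 and 972) on the 18 others together. The median width of its Kdm6bMUT peaks was 1366 bases (quartiles 686 and 2625), against 1587 bases (786 and 3342) on the others. Both medians were below those of each other autosome, by a small margin: the next were 444 bases for Kdm6bWT peaks on chromosome 14 and 1420 bases for Kdm6bMUT peaks on chromosome 1. The smallest width in the lists, 300 bases, was that of 35 Kdm6bWT peaks on chromosome 19 (29.7%, 95% exact interval 21.6% to 38.8%), against 23.8% on all 19 autosomes. It was that of 78 Kdm6bMUT peaks (4.90%, 3.89% to 6.07%), against 4.19% on all 19 autosomes.

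For Kdm6bMUT peaks the difference in share was greater at 10 kb than at the smallest width. Of the Kdm6bMUT peaks on chromosome 19, 26 were 10 kb or wider (1.63%, 95% exact interval 1.07% to 2.38%), against 4.28% on all 19 autosomes and 3.11% to 6.28% on each other autosome. They held 11.3% of its Kdm6bMUT bases, against 17.9% to 30.7% on each other autosome. No Kdm6bWT peak on chromosome 19 reached 5 kb, and none of the 118 reached 10 kb, which allows a share of up to 3.08% (upper limit of the 95% exact interval); 2 of the 4670 on the others did. At the 90th percentile, Kdm6bWT peaks were 1243 bases wide on chromosome 19 and 1326 on the others, and Kdm6bMUT peaks 4558 bases on chromosome 19 and 6426 on the others. All such intervals cover counting error alone, and peaks next to each other may not be independent.

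**Figure D4:**
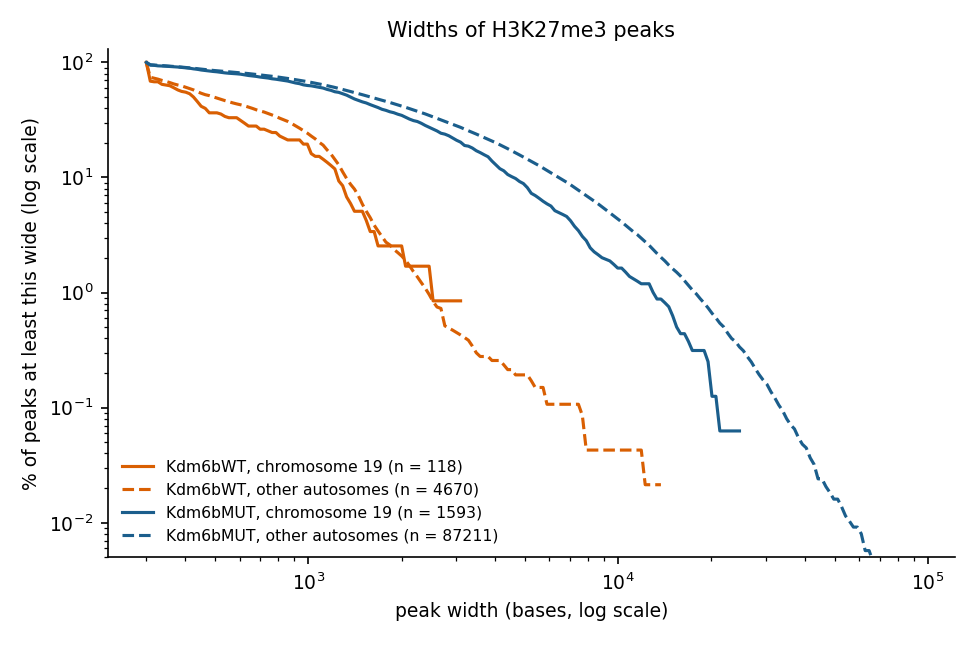
Share of peaks at least as wide as the value on the horizontal axis (both axes on log scales), for Kdm6bWT peaks (orange) and Kdm6bMUT peaks (blue) on chromosome 19 (solid) and the 18 other autosomes (dashed), 1 library each. The solid Kdm6bMUT line lies below the dashed one and the gap widens with width: 1.63% of Kdm6bMUT peaks reach 10 kb on chromosome 19, and no Kdm6bWT peak there reaches 5 kb.

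The widest Kdm6bMUT peak on chromosome 19 was 25.1 kb (28672237 to 28697355) and ranked 286 by width in the whole list. The next were 20.9 kb (50866396 to 50887255) and 20015 bases (55185206 to 55205220). None of the 3 touched a Kdm6bWT peak, and their fold enrichments were 3.22, 3.44 and 3.25. The widest Kdm6bWT peak was described above, and the second widest (50726133 to 50728614, 2482 bases, fold enrichment 4.09) lay wholly on a Kdm6bMUT peak. No other Kdm6bWT peak on the chromosome but the widest reached 3 kb.

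Kdm6bWT peaks on chromosome 19 lay on Kdm6bMUT peaks less often than on the other autosomes. Of the 118 Kdm6bWT peaks, 39 did (33.1%, 95% exact interval 24.7% to 42.3%), against 50.2% on all 19 autosomes and 40.5% to 59.6% on each other autosome. By base the share was 31.4%, against 43.6% on the others together. Kdm6bMUT peaks also covered less of chromosome 19, and relative to that coverage the share of Kdm6bWT bases was 5.38 times on chromosome 19 and 4.20 times on the others. In the opposite direction, 39 of the 1593 Kdm6bMUT peaks were touched by a Kdm6bWT peak (2.45%, 1.75% to 3.33%), close to the 2.63% on all 19 autosomes. By base that share was 0.674% on chromosome 19 and 0.590% on the others. The shared length was 22.8 kb.

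The share of Kdm6bMUT peaks touched was higher in wider classes. A Kdm6bWT peak touched 4 of the 26 Kdm6bMUT peaks of 10 kb or more (15.4%, 95% exact interval 4.36% to 34.9%). It touched 5 of 108 from 5 to 10 kb (4.63%), 27 of 868 from 1 to 5 kb (3.11%) and 3 of 591 under 1 kb (0.508%, 0.105% to 1.48%). A wider peak offers more bases to touch, and per base the shares were 0.951%, 0.511%, 0.754% and 0.242% in the same order. The per-base shares thus followed no steady order of width, apart from the lowest value in the narrowest class.

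The 79 Kdm6bWT peaks off Kdm6bMUT peaks lay at a wide range of distances from them. Of these, 32 lay within 5 kb of a Kdm6bMUT peak (40.5%, 95% exact interval 29.6% to 52.1%), against 43.3% on the others. A further 27 lay 100 kb or more away (34.2%), against 24.7% on the others. Their median distance was 42.4 kb on chromosome 19 and 9.16 kb on the others. The highest-scoring Kdm6bWT peaks on chromosome 19 belonged to this set. They were 45724464 to 45724895 (score 48, fold enrichment 3.86), 43495456 to 43495864 (score 33, 5.43) and 24160136 to 24160435 (score 28, 5.10), at 31.5, 22.4 and 205 kb from the nearest Kdm6bMUT peak. Of the 3 highest-scoring Kdm6bMUT peaks, the third, at the very end of the compared stretch (61340085 to 61340521, score 39, fold enrichment 3.18), shared 300 bases with a Kdm6bWT peak. The second (21272795 to 21273439, score 40) lay 124 kb from one.

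Peak strength differed little between chromosome 19 and the other autosomes. Kdm6bWT peaks had a median fold enrichment of 3.85 on chromosome 19 and 3.84 on the others, with a median score of 13 in both. Kdm6bMUT peaks had a median fold enrichment of 3.04 on chromosome 19 and 3.07 on the others, and median scores of 17 and 18. At the lowest −log10 p of the Kdm6bWT list, 673 of the 1593 Kdm6bMUT peaks remained on chromosome 19 (42.2%, 95% exact interval 39.8% to 44.7%), against 46.0% on all 19 autosomes and 41.9% to 52.3% on each other autosome. Chromosome 19 was near the low end of that range but not at it.

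Other gene-dense autosomes had more Kdm6bMUT coverage than chromosome 19. By the RefSeq table for GRCm38, from which gene numbers alone were taken, it carried 705 protein-coding genes, or 11.5 per Mb, the third highest of the 19 autosomes. Chromosomes 7, 11 and 17 were the other gene-dense autosomes, with 14.0, 13.2 and 11.2 genes per Mb. Their Kdm6bWT coverage was 0.120%, 0.216% and 0.144%, and their Kdm6bMUT coverage was 11.4%, 11.3% and 12.5%, against 0.125% and 5.84% on chromosome 19. Over the 19 autosomes, genes per Mb had a Spearman correlation of 0.30 with Kdm6bWT coverage, 0.32 with Kdm6bMUT coverage and −0.11 with the ratio. Without chromosome 19 these values were 0.42, 0.50 and 0.01. The length of a chromosome had a Spearman correlation of 0.11 with the ratio and −0.05 without chromosome 19. All points share the same 2 libraries, and these correlations are descriptions.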

How the data were processed

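Peak lists from 1 H3K27me3 ChIP library per injection were analysed, each called against input per the labels. Bowtie2 2.2.2, MACS2 and the mm9 build appear, with no roles, in the submitters' processing notes; the sources used here do not give the caller's settings. The lists, without headers, follow the column order of a MACS2 broad peak list. Each peak has a deposited fold enrichment (a ratio of ChIP over input), a deposited −log10 p and −log10 q, and a deposited score equal to 10 times the −log10 q rounded down in at least 99.998% of peaks. Read depth is unknown.

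Covered bases, widths, 1 Mb windows and overlaps of at least 1 base were computed in Python 3.11.15 (scipy 1.17.1, pandas 2.3.3, numpy 2.4.6) and drawn with matplotlib 3.10.9. Simulated data were used to test the overlap and window steps. Chromosome length runs from the first to the last peak of either list, and windows before the first peak were left out. Shares have 95% exact (Clopper-Pearson) intervals. No test was made, with 1 library per group. Named on chromosome 19 were the 5 most covered windows, from each list 3 peaks by width and 3 by score, the 3 longest runs and stretches, and Kdm6bWT peaks of 3 kb or more. Other windows were named after their values were seen. The chromosome, measures and named-region rule were chosen with earlier results of these data known.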

Additional observations from a re-analysis of the deposited data

How the results depend on the processing

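No paired analysis was possible because there was 1 ChIP library for each injection. Alternative settings gave 70 values. Of these, 43 were within 1.5 times the value in the report (or inside its 95% exact interval for shares of peaks and of windows, or at the same rank), and 27 did not. Floors on score, p and width leave fewer peaks by construction; otherwise the cause was not tested. Depth limits every count of peaks. With scores of at least 13 the ratio of Kdm6bMUT to Kdm6bWT bases was 106 (rank 2 from the lowest), Kdm6bWT peaks covered 0.0542% of chromosome 19, and 1.36% of Kdm6bMUT peaks were touched. At a −log10 p of at least 3.67 the ratio was 25.2, Kdm6bMUT coverage 3.16%, windows without a Kdm6bMUT peak 15.3%, and Kdm6bWT peaks on Kdm6bMUT peaks 18.6%. Merging below 5 kb gave a ratio of 73.7 (rank 2), Kdm6bMUT coverage of 9.88%, a median Kdm6bMUT width of 3563 bases and 6.76% of Kdm6bMUT peaks touched. Peaks of at least 1 kb gave a ratio of 97.2 (rank 2), Kdm6bWT coverage of 0.0541% and a median Kdm6bMUT width of 2167 bases. Of the 22 Kdm6bWT peaks left, 50% lay on Kdm6bMUT peaks, and 1.10% of the 1002 Kdm6bMUT peaks left were touched. Counted by peaks the ratio was 13.5. In 500 kb windows 17.1% had no Kdm6bMUT peak. Requiring 50% of a Kdm6bMUT peak to be covered gave 0.126%, and counting bases 0.674%. Added after seeing the data, leaving out peaks of 10 kb or more gave rank 2, windows under 100 kb a ratio of 30.2 (rank 4) and windows of 100 kb or more 76.6. Ratios without the ends of the autosomes or without their 5 most covered windows of either list ranged from 39.1 to 50.4 and stayed the lowest. A fixed length or number of windows is a larger part of chromosome 19, the shortest. Its 5 most covered windows held 34.1% of its Kdm6bMUT bases, against 12.7% to 26.3% on each other autosome. For Kdm6bWT bases the share was 32.9%, against 11.8% to 35.4%. The autosomes were thus not cut alike.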
